A study of Homo sapiens with 9 samples.

Results

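The TGF-beta core examined here comprised 9 genes of the 23610 in the expression table. They were taken by symbol: the ligands TGFB1, TGFB2 and TGFB3, the receptors TGFBR1, TGFBR2 and TGFBR3, the mediators SMAD2 and SMAD3, and the target gene SKIL. All 9 had a row in the table, and 8 passed a filter that asked for 1 FPKM or more on average (FPKM, fragments per kilobase of transcript, scaled to the mapped fragments). TGFB2 did not pass and is given by its values. The libraries came from GIST-T1, an established human cell line of gastrointestinal stromal tumour (GIST), a mesenchymal tumour of the gut wall. PolyA RNA was sequenced from 3 libraries with an sgRNA against HAND1, 3 with an sgRNA against ETV1 and 3 with a control sgRNA against Luciferase. The labels list the sgRNA under a knockdown tag and name no time point. Separate cultures are not named in them, so the spread behind each p-value may be technical.

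TGF-beta ligands are secreted in a latent form, bound to their own propeptide and to latent TGF-beta binding proteins in the matrix. Once released, a ligand dimer binds the type II receptor TGFBR2, which phosphorylates the type I receptor TGFBR1. TGFBR1 then phosphorylates SMAD2 and SMAD3, which join the common partner SMAD4 and act on target genes in the nucleus. In mesenchymal cells the pathway is known for inducing matrix and contractile genes.

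The targeted transcripts were lower with their own sgRNA. HAND1, a basic helix-loop-helix (bHLH) transcription factor, was at 38.3 ± 2.25 FPKM with HAND1 sgRNA, 132 ± 2.26 with ETV1 sgRNA and 114 ± 1.12 with Luciferase sgRNA (SD, n = 3 each). ETV1, an ETS family transcription factor, was at 40.8 ± 0.960, 11.4 ± 0.571 and 39.7 ± 2.42 FPKM in the same order. Of the other 6 GIST markers examined, 2 fell with HAND1 sgRNA against Luciferase sgRNA. KIT, the receptor kinase that drives most GIST, was at 160 ± 4.51 FPKM with HAND1 sgRNA, 207 ± 9.22 with ETV1 sgRNA and 209 ± 11.3 with Luciferase sgRNA, and fell by 0.38 (log2, adjusted p = 0.00336). PRKCQ, a kinase used as a GIST marker, fell by 0.75 (adjusted p = 3.26e-04). ANO1, CD34, BARX1 and FOXF1 were not called. The part of these marker changes in the results below was not tested. The blood markers PTPRC, CD3E and CD14 had maxima of 0.0581, 0.288 and 0.626 FPKM. The endothelial markers PECAM1, CDH5 and VWF had maxima of 0.0799, 0.448 and 0.111 FPKM. Over all 9 libraries the epithelial markers EPCAM, CDH1, KRT8 and KRT18 averaged 0.649, 0.0281, 3.27 and 225 FPKM. The fibroblast markers PDGFRB, LUM and COL3A1 averaged 4.78, 313 and 858 FPKM. Sums of FPKM ran from 451286 to 479939 in 8 libraries, and Luciferase sgRNA replicate 3 stood apart at 538689. Ribosomal protein genes took 13.3% of its sum, against 9.39% to 10.6% in the others. Without that library, the core genes called against Luciferase sgRNA were again 2 with HAND1 sgRNA and 0 with ETV1 sgRNA.

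With HAND1 sgRNA, the ligand TGFB3 and the type II receptor TGFBR2 rose over Luciferase sgRNA, while TGFB1, TGFBR1, SMAD2 and SKIL each differed by at most 0.07 (log2). Thus 2 of the 8 tested genes rose and 0 fell. The core genes were chosen with earlier results of these data known, so their counts here and below are a description. Over the 11348 genes tested, 6.60% were called, 3.67% higher and 2.93% lower. The libraries of the 2 groups did not overlap for 4 of the 8, 3 higher and 1 lower, against 25.7% of all genes (13.0% higher and 12.7% lower), and 4 of the 8 had an unadjusted p under 0.05, against 20.3%.

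With ETV1 sgRNA against Luciferase sgRNA, 0 of the 8 were called, where 0.203% of all genes were called, 0.141% higher and 0.0617% lower. An unadjusted p under 0.05 was found for 0 of the 8 and for 8.20% of all genes. The groups did not overlap for 2 of the 8 (TGFB3 and SMAD2), both higher, against 12.9% of all genes (6.88% higher). Set directly against ETV1 sgRNA, HAND1 sgRNA libraries had 3 of the 8 higher (TGFB3, TGFBR2 and TGFBR3) and 0 lower. Over all genes 4.05% were called, 2.01% higher and 2.04% lower. The groups did not overlap for 4 of the 8, 3 higher and 1 lower, against 22.4% of all genes (10.9% higher and 11.5% lower), and 4 had an unadjusted p under 0.05, against 15.4%. A gene was called when its adjusted p in limma was under 0.05 (Benjamini-Hochberg over all tested genes, values as log2(FPKM + 1), all 9 libraries in 1 fit). Differences on this scale understate the change of low genes. The HAND1 sgRNA and ETV1 sgRNA differences share the Luciferase sgRNA libraries, and the direct comparison is the test of the difference between them.

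**Figure D1:**
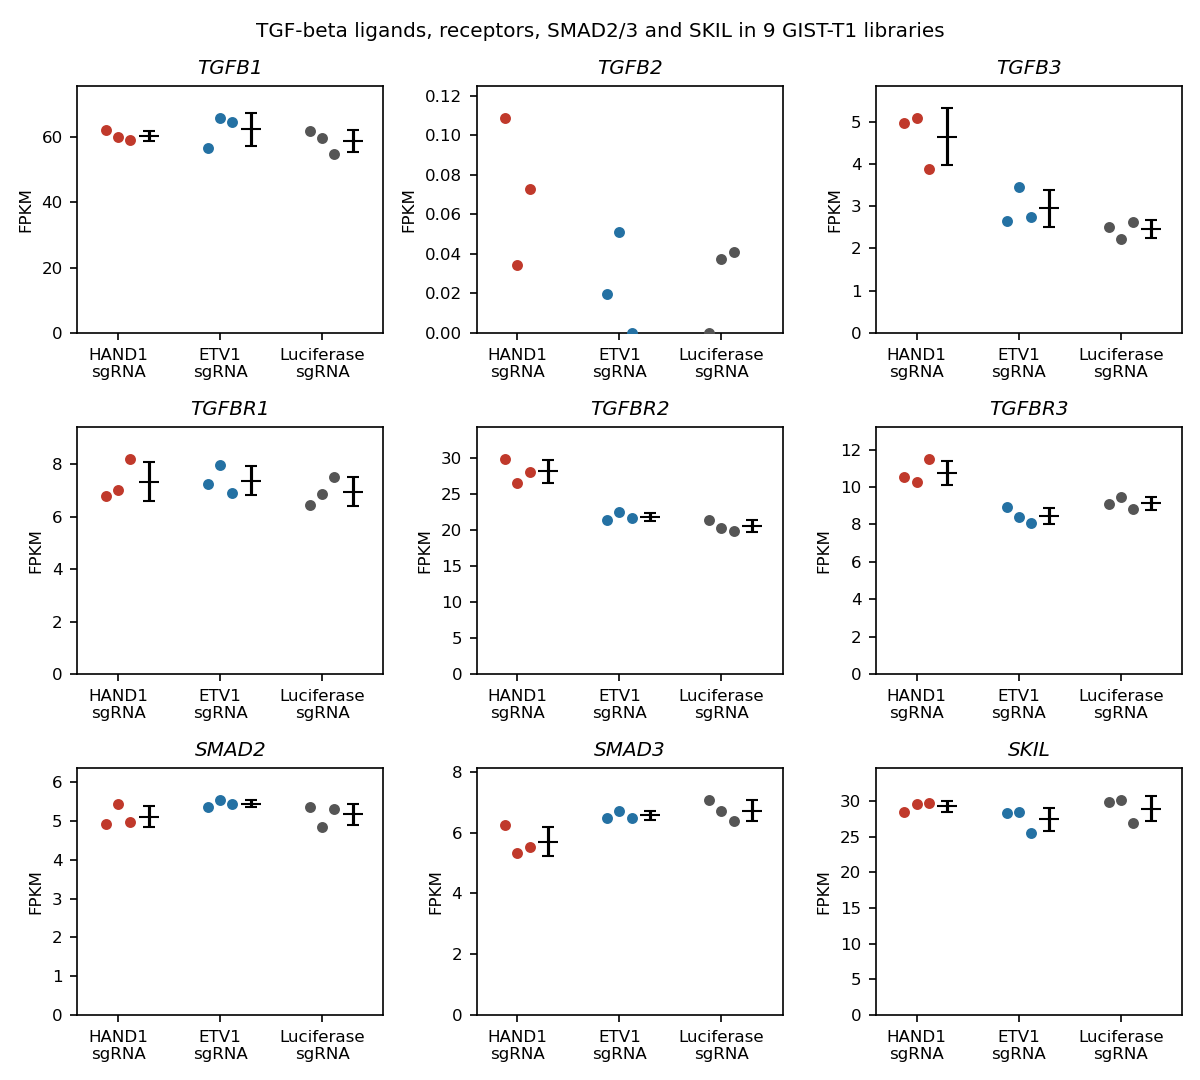
FPKM of the 9 genes (y axis, from 0) in each library, with HAND1 sgRNA (red), ETV1 sgRNA (blue) and Luciferase sgRNA (grey) on the x axis. Points are libraries in replicate order, and black bars are the mean ± SD of 3 libraries (none drawn for TGFB2, which is listed at 0 in some libraries). TGFB3, TGFBR2 and TGFBR3 lie higher, and SMAD3 lower, in every HAND1 sgRNA library than in any library of the other groups.

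Among the ligands TGFB1, the isoform most widely expressed in human tissues, was by far the highest. TGFB1 was at 62.1, 59.9 and 58.9 FPKM with HAND1 sgRNA, at 56.6, 65.7 and 64.7 FPKM with ETV1 sgRNA and at 61.7, 59.6 and 54.9 FPKM with Luciferase sgRNA (replicates 1, 2 and 3, here and below). The 3 groups overlapped. The difference from Luciferase sgRNA was 0.04 (log2, 95% confidence interval −0.11 to 0.19, adjusted p = 0.806) with HAND1 sgRNA and 0.08 (−0.07 to 0.23, adjusted p = 0.816) with ETV1 sgRNA. Without Luciferase sgRNA replicate 3 these differences were −0.01 and 0.04, so the sign of the first rests on that library. In the annotation consulted, exons of TGFB1 overlap those of HNRNPUL1 on the opposite strand (mean 106 FPKM). The library kit was non-stranded, so reads of such overlaps cannot be told apart and the TGFB1 level is uncertain.

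TGFB3, the isoform known from palate and lung development, was the ligand that changed. TGFB3 was at 4.97, 5.08 and 3.87 FPKM with HAND1 sgRNA, at 2.64, 3.46 and 2.74 FPKM with ETV1 sgRNA and at 2.51, 2.23 and 2.64 FPKM with Luciferase sgRNA. All 3 HAND1 sgRNA libraries lay above all 6 others. TGFB3 rose by 0.70 (log2, SE 0.12, adjusted p = 0.00610) with HAND1 sgRNA against Luciferase sgRNA. The rise was 0.74 (adjusted p = 0.0112) without Luciferase sgRNA replicate 3, and leaving out any 1 library gave 0.64 to 0.80 with an adjusted p of at most 0.0330. With ETV1 sgRNA the difference was 0.19 (95% confidence interval −0.08 to 0.45, adjusted p = 0.762), although the 3 ETV1 sgRNA values lay above the 3 Luciferase sgRNA values. HAND1 sgRNA against ETV1 sgRNA gave 0.51 (SE 0.12, adjusted p = 0.0425). That last call failed (adjusted p over 0.05) when 1 of these was left out: ETV1 sgRNA replicate 1 (0.142) or 3 (0.136), HAND1 sgRNA replicate 1 (0.155) or 2 (0.151), or Luciferase sgRNA replicate 1 (0.0601) or 2 (0.0588), and with the replicate number as a block (0.0759). It also failed with no filter on low values (0.0849) and when the third group was left out of the fit (0.0602). TGFB3 overlaps the antisense gene TGFB3-AS1 in its exons, which adds the same uncertainty.

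TGFB2, the isoform with a lower affinity for TGFBR2 in the absence of TGFBR3, was near 0 throughout. TGFB2 was at 0.109, 0.0342 and 0.0727 FPKM with HAND1 sgRNA, at 0.0199, 0.0513 and 0 FPKM with ETV1 sgRNA and at 0, 0.0374 and 0.0408 FPKM with Luciferase sgRNA. The groups overlapped. TGFB2 was below the filter, and a fit of all genes without a filter called it in none of the 3 comparisons (HAND1 sgRNA against Luciferase sgRNA 0.06, adjusted p = 0.468 in limma). As a share of the summed FPKM of the 3 ligands, TGFB3 made up 7.12 ± 0.861% with HAND1 sgRNA, 4.50 ± 0.465% with ETV1 sgRNA and 4.03 ± 0.498% with Luciferase sgRNA (SD, n = 3 each; 3.75% without Luciferase sgRNA replicate 3). TGFB1 made up 92.8 ± 0.845%, 95.5 ± 0.502% and 95.9 ± 0.512% in the same order. The summed ligand FPKM, at 65.0 ± 2.16, 65.3 ± 5.31 and 61.3 ± 3.37, overlapped between the groups. By FPKM the ligand pool was mostly TGFB1 in all 9 libraries, as far as the uncertain TGFB1 level allows.

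TGFBR2, the ligand-binding kinase of the pair, was the receptor that rose with HAND1 sgRNA. TGFBR2 was at 29.9, 26.6 and 28.1 FPKM with HAND1 sgRNA, at 21.4, 22.5 and 21.7 FPKM with ETV1 sgRNA and at 21.5, 20.3 and 20.0 FPKM with Luciferase sgRNA. All 3 HAND1 sgRNA values lay above all 6 others, while the ETV1 sgRNA and Luciferase sgRNA values overlapped. TGFBR2 rose by 0.44 (log2, SE 0.059, adjusted p = 0.00163) with HAND1 sgRNA against Luciferase sgRNA, and by 0.42 (adjusted p = 0.00454) without Luciferase sgRNA replicate 3. Against ETV1 sgRNA it was higher by 0.35 (SE 0.059, adjusted p = 0.00807). Both calls were kept under every alternative run, with any 1 library left out included. With ETV1 sgRNA against Luciferase sgRNA the difference was 0.09 (95% confidence interval −0.04 to 0.22, adjusted p = 0.778).

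TGFBR1, the partner kinase that phosphorylates SMAD2 and SMAD3, was called in none of the 3 comparisons. TGFBR1 was at 6.80, 7.01 and 8.19 FPKM with HAND1 sgRNA, at 7.26, 7.97 and 6.88 FPKM with ETV1 sgRNA and at 6.44, 6.88 and 7.52 FPKM with Luciferase sgRNA. The groups overlapped, and the difference from Luciferase sgRNA was 0.07 with HAND1 sgRNA (95% confidence interval −0.14 to 0.27, adjusted p = 0.740) and 0.08 with ETV1 sgRNA (−0.13 to 0.28, adjusted p = 0.894). The FPKM ratio of TGFBR2 to TGFBR1 was 3.87 ± 0.487 with HAND1 sgRNA, 2.98 ± 0.168 with ETV1 sgRNA and 2.98 ± 0.342 with Luciferase sgRNA (SD, n = 3 each; 3.14 without Luciferase sgRNA replicate 3). It lay between 3.43 and 4.40 with HAND1 sgRNA, above the highest Luciferase sgRNA value of 3.34.

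TGFBR3, betaglycan, a co-receptor without kinase activity that presents ligand to TGFBR2, moved less. TGFBR3 was at 10.5, 10.3 and 11.5 FPKM with HAND1 sgRNA, at 8.92, 8.39 and 8.09 FPKM with ETV1 sgRNA and at 9.07, 9.49 and 8.82 FPKM with Luciferase sgRNA. The HAND1 sgRNA values lay above all 6 others, and the ETV1 sgRNA and Luciferase sgRNA values overlapped. Against Luciferase sgRNA the HAND1 sgRNA difference was 0.22 (log2, SE 0.069, unadjusted p = 0.0111 in limma) and failed the adjustment (adjusted p = 0.103), and without Luciferase sgRNA replicate 3 it was 0.19 (adjusted p = 0.214). Against ETV1 sgRNA it was 0.31 (SE 0.069, adjusted p = 0.0333). That call was lost without any 1 ETV1 sgRNA replicate (adjusted p = 0.0547, 0.104 and 0.114 without replicates 1, 2 and 3), HAND1 sgRNA replicate (0.0902, 0.0624 and 0.139) or Luciferase sgRNA replicate 1 (0.0502) or 2 (0.0532), and with the replicate number as a block (0.0761). It also failed with only the 2 groups in the fit (0.0578).

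**Figure D2:**
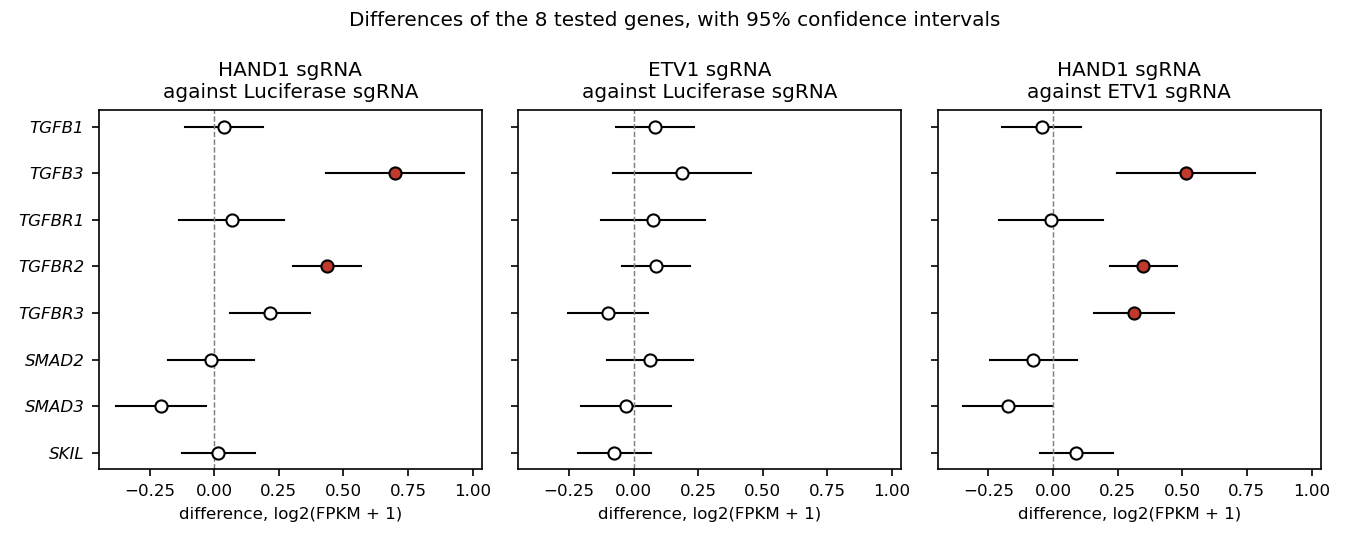
Difference on the scale log2(FPKM + 1) (x axis) of the 8 tested genes (rows) in the 3 comparisons, with 95% confidence intervals as lines. Filled points were called at an adjusted p under 0.05 in limma. Filled points in the HAND1 sgRNA against Luciferase sgRNA comparison are TGFB3 and TGFBR2, and TGFBR3 joins them in that of HAND1 sgRNA against ETV1 sgRNA.

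The stretches upstream of the annotated starts of TGFBR2 and TGFB3 are shown because these genes rose with the sgRNA against a bHLH factor. Each holds the 250 bases before a RefSeq start on GRCh38.p14, read 5′ to 3′ on the strand of the gene. Capitals mark CANNTG, the E-box letters that bHLH factors bind. The 3 stretches are chr3:30606106-30606355 (plus strand) for TGFBR2, and chr14:75981996-75982245 and chr14:75983012-75983261 (minus strand) for the downstream and upstream starts of TGFB3. None overlaps an exon of GENCODE release 29. The second TGFBR2 window and that of TGFBR3 overlap exons of their own gene and are not printed.
TGFBR2: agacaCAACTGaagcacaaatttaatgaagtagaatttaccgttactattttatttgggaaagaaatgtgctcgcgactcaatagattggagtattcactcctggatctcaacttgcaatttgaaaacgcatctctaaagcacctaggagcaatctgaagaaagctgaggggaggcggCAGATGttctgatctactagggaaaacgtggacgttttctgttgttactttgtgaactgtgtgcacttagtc
TGFB3 downstream start: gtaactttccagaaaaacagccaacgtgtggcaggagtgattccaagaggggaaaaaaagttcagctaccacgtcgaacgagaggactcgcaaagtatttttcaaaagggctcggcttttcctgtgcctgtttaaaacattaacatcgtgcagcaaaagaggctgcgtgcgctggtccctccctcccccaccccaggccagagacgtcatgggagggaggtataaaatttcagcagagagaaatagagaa
TGFB3 upstream start: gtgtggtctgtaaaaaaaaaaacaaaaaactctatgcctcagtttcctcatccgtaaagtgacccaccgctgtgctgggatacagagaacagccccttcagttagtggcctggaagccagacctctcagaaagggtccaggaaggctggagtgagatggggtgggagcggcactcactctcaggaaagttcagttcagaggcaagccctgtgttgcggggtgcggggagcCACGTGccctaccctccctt
The TGFBR2 stretch holds CANNTG at 245 and 72 bases before the start, the nearer one as CAGATG, the reverse complement of CATCTG, a form of the E-box described for HAND1 with its E-protein partners. The same CATCTG letters, on either strand, also occurred in 2 of the 5 windows of SMAD3, which was not called, and in no window of TGFB3 or TGFBR3. The stretch before the upstream TGFB3 start holds CANNTG 20 bases before it, and the stretch before the downstream start holds none. Searched on both strands over the same 250 bases of 35116 annotated starts, CANNTG occurred in 61.8% and CATCTG in 12.2%. A letter match in such a window is a description and does not show that a factor binds there. The build of the deposited values is hg19, so these coordinates are not those of the authors' files.

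SMAD2 and SMAD3, the mediators that the activated receptor phosphorylates, were low and close to each other. SMAD2 was at 4.93, 5.43 and 4.99 FPKM with HAND1 sgRNA, at 5.36, 5.54 and 5.43 FPKM with ETV1 sgRNA and at 5.36, 4.86 and 5.31 FPKM with Luciferase sgRNA. SMAD3 was at 6.26, 5.34 and 5.51 FPKM with HAND1 sgRNA, at 6.49, 6.72 and 6.47 FPKM with ETV1 sgRNA and at 7.06, 6.72 and 6.37 FPKM with Luciferase sgRNA. In the annotation, SMAD3 shares exon positions with the antisense gene AC087482.1, so its reads cannot be fully told apart. For SMAD3 the 3 HAND1 sgRNA values lay below all 6 others, with a difference from Luciferase sgRNA of −0.20 (95% confidence interval −0.38 to −0.03, unadjusted p = 0.0251 in limma). This failed the adjustment (adjusted p = 0.166), as it did under every alternative run, and was −0.24 (adjusted p = 0.172) without Luciferase sgRNA replicate 3. The SMAD2 difference was −0.01 (−0.18 to 0.15, adjusted p = 0.946) with HAND1 sgRNA and 0.06 (−0.10 to 0.23, adjusted p = 0.894) with ETV1 sgRNA. The FPKM ratio of SMAD3 to SMAD2 was 1.12 ± 0.143 with HAND1 sgRNA, 1.21 ± 0.0123 with ETV1 sgRNA and 1.30 ± 0.0925 with Luciferase sgRNA (SD, n = 3 each; 1.35 without Luciferase sgRNA replicate 3).

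SMAD4, the common partner through which SMAD2 and SMAD3 act on most target genes, was listed at or near 0 in every library. SMAD4 was at 0.0119, 0 and 0.0160 FPKM with HAND1 sgRNA, at 0, 0.0169 and 0 FPKM with ETV1 sgRNA and at 0, 0 and 0.0134 FPKM with Luciferase sgRNA. It was listed at 0 in 5 of 9 libraries, among them 2 of the 3 Luciferase sgRNA libraries. The protein-coding genes next to it in the chromosome order of RefSeq GRCh38.p14 were looked up after this value was seen. ELAC1, the neighbour on one side, was at 0 in 8 of 9 libraries and at 0.0570 FPKM in the other, and ME2, the next beyond it, was at most at 0.0687 FPKM. MEX3C, the neighbour on the other side, was at 14.0 to 19.1 FPKM. DCC, next beyond it, was at 0 in 8 of 9 libraries, and MBD2, farther on that side, was at 6.74 to 8.61 FPKM. MRO and MAPK4, beyond ME2, were at 0.247 to 0.649 and 0.164 to 0.487 FPKM. A value near 0 in such a table can be a failed estimate or absent RNA. Which it was for SMAD4, ELAC1 and ME2 was not tested, and no genomic data were analysed here.

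SKIL, a SMAD co-repressor that TGF-beta signalling itself induces, was high in all 3 groups and was not called. SKIL was at 28.4, 29.5 and 29.7 FPKM with HAND1 sgRNA, at 28.3, 28.4 and 25.6 FPKM with ETV1 sgRNA and at 29.8, 30.1 and 26.9 FPKM with Luciferase sgRNA. The groups overlapped, with differences from Luciferase sgRNA of 0.02 (95% confidence interval −0.13 to 0.16, adjusted p = 0.925) with HAND1 sgRNA and −0.07 (−0.22 to 0.07, adjusted p = 0.824) with ETV1 sgRNA. Without Luciferase sgRNA replicate 3 they were −0.04 and −0.12, so the sign of the first rests on that library. SMAD7, the inhibitory SMAD that the pathway also induces, was below the filter at 0.700 ± 0.0477, 0.767 ± 0.153 and 0.622 ± 0.0898 FPKM with HAND1, ETV1 and Luciferase sgRNA (SD, n = 3 each).

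In each group the order of levels ran from TGFB1 through SKIL, TGFBR2, TGFBR3, TGFBR1, SMAD3, SMAD2 and TGFB3 to TGFB2. FPKM is per transcript length, so levels of different genes can be set side by side. The levels of TGFB1, TGFB3 and SMAD3 are less certain, because their exons overlap those of genes on the opposite strand. With HAND1 sgRNA the ranges of SKIL and TGFBR2 overlapped, as did those of SMAD3 and SMAD2 and of SMAD2 and TGFB3. With ETV1 sgRNA no neighbours in the order overlapped, and with Luciferase sgRNA TGFBR1 and SMAD3 did. The HAND1 sgRNA libraries thus had TGFBR2 at the level of SKIL and TGFB3 at the level of SMAD2, which the control libraries did not. TGFB1 lay above 86.1% of the tested genes by its mean level and TGFB3 above 16.7%.

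The genes with the most similar profile over the 9 libraries on the log2(FPKM + 1) scale were found by Pearson's r, as a description. For TGFBR2 they were PEG10 (r = 0.98), SLIT2 (0.98) and HSD3B7 (0.98). For TGFB3 they were IFIT1 (0.97), DAG1 (0.96) and CR1L (0.96), and for TGFBR3 they were FAM178A (0.98), TSC1 (0.96) and GNPDA2 (0.96). With 3 groups of 3 libraries, such a coefficient mostly restates that a gene differs between the groups in the same way.

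Beyond the 9 core genes, 97 other pathway genes in 6 lists were examined, and 69 passed the filter. The lists were chosen with earlier results of these data known, so their counts here and below are a description. With HAND1 sgRNA against Luciferase sgRNA 16 rose, 6 fell and 47 were not called, where 3.67% of all tested genes rose and 2.93% fell. Their median difference was 0.10 (log2), against −0.01 over all tested genes. With ETV1 sgRNA against Luciferase sgRNA 2 rose (ACTA2 and DCN), 0 fell and 67 were not called, with a median of 0.04 against −0.01, where 0.141% of all genes rose and 0.0617% fell. With HAND1 sgRNA against ETV1 sgRNA 9 were higher, 4 were lower and 56 were not called, where 2.01% of all genes were higher and 2.04% lower (median 0.09, against −0.00 over all genes). The HAND1 sgRNA count of 22 became 14 without HAND1 sgRNA replicate 1 or 3. When Luciferase sgRNA replicate 3 was left out, 18 of the 22 kept their call, 4 lost it (LTBP4, SKI, TGIF1 and TGFB1I1), and both ETV1 sgRNA calls were kept.

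**Figure D3:**
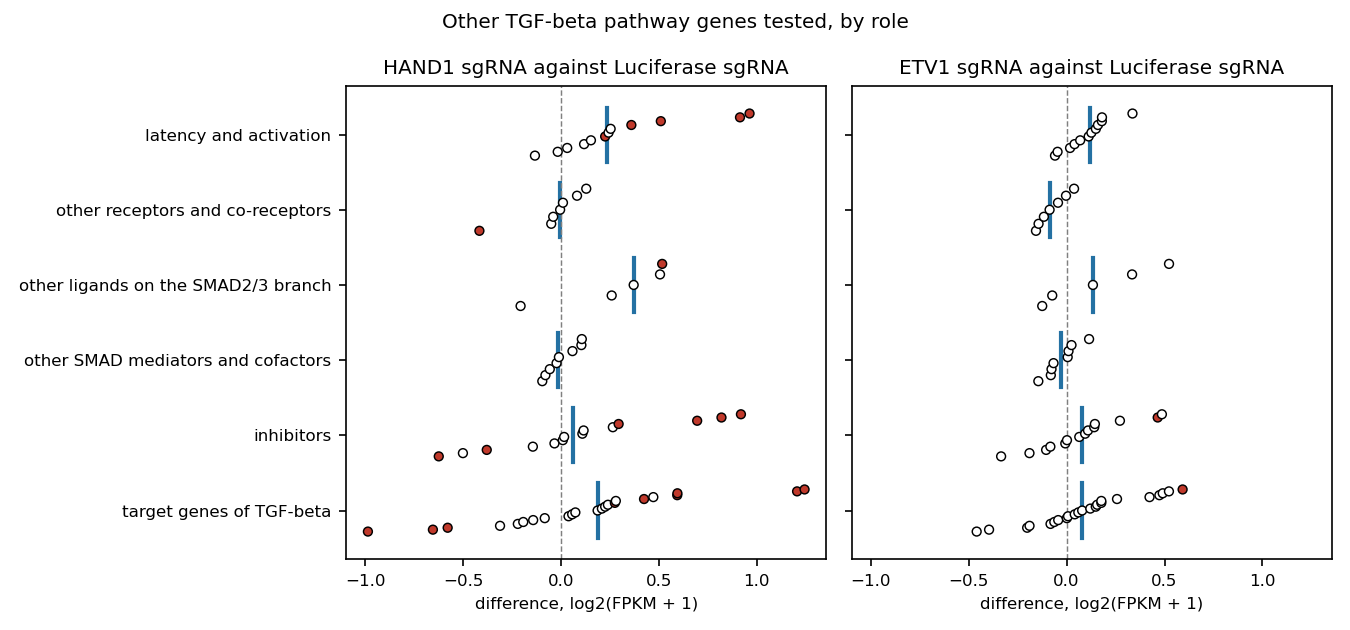
Difference on the scale log2(FPKM + 1) (x axis) of the 69 other pathway genes tested, by list (rows), for HAND1 sgRNA and ETV1 sgRNA, each against Luciferase sgRNA. Each point is a gene, filled points were called in limma at an adjusted p under 0.05, and blue bars are the list medians. In the latency and activation list 5 of 12 points are filled for HAND1 sgRNA, all above 0. For ETV1 sgRNA 0 are filled, and 10 of the 12 lie above 0.

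Among genes of ligand latency and activation, 5 of 12 tested rose with HAND1 sgRNA, 0 fell and 7 were not called (median 0.23), where 3.67% of all genes rose and 2.93% fell. With ETV1 sgRNA against Luciferase sgRNA 0 of the 12 were called (0.203% of all genes). Of these 12 differences 10 were above 0 (5326 of 11348 over all genes), and 3 had an unadjusted p under 0.05 in limma (8.20%). Set directly against ETV1 sgRNA, 2 of the 12 were called, both higher, where 4.05% of all genes were called. LTBP1, a latent TGF-beta binding protein that anchors the latent ligand in the matrix, was at 4.31 ± 0.627 FPKM with HAND1 sgRNA, 2.43 ± 0.206 with ETV1 sgRNA and 1.71 ± 0.119 with Luciferase sgRNA (SD, n = 3 each). It rose by 0.96 (log2, adjusted p = 5.78e-04) over Luciferase sgRNA. THBS1, thrombospondin, which can release TGF-beta from its latent complex, was at 158 ± 3.79, 90.9 ± 3.99 and 83.3 ± 5.79 FPKM in the same order and rose by 0.91 (adjusted p = 1.81e-05). Against ETV1 sgRNA THBS1 was higher by 0.79 (adjusted p = 5.26e-05) and LTBP1 by 0.63 (adjusted p = 0.0100). That LTBP1 call failed at an adjusted p of 0.0522 or 0.0512 with HAND1 sgRNA replicate 1 or 3 left out. LTBP3 (0.36, adjusted p = 0.00892) and LTBP4 (0.51, adjusted p = 0.0225), other members of the LTBP family, also rose over Luciferase sgRNA. Against ETV1 sgRNA neither was called in limma (LTBP3 0.20, adjusted p = 0.155, and LTBP4 0.40, adjusted p = 0.0882). The LTBP4 call was lost with 1 of these left out: HAND1 sgRNA replicate 1 (adjusted p = 0.0541), 2 (0.0528) or 3 (0.0943) or Luciferase sgRNA replicate 3 (0.0527). It also failed with no filter on low values (0.0541).

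Of 14 extracellular and intracellular inhibitors tested, 4 rose with HAND1 sgRNA, 2 fell and 8 were not called (median 0.06), where 3.67% of all genes rose and 2.93% fell. DCN, decorin, a small proteoglycan that binds TGF-beta, was at 129 ± 2.58 FPKM with HAND1 sgRNA, 93.8 ± 1.53 with ETV1 sgRNA and 67.7 ± 3.18 with Luciferase sgRNA (SD, n = 3 each). DCN was called in all 3 comparisons: by 0.92 (adjusted p = 4.82e-06) with HAND1 sgRNA, by 0.47 (adjusted p = 0.00306) with ETV1 sgRNA, and by 0.45 (adjusted p = 5.86e-04) between them. BGN, biglycan, a related proteoglycan, rose by 0.70 (adjusted p = 5.09e-04) with HAND1 sgRNA against Luciferase sgRNA. FST, the activin antagonist follistatin, rose by 0.82 (adjusted p = 0.0206) at a low level, 1.88 ± 0.617 against 0.613 ± 0.215 FPKM, and passed the filter only through the groups where it was high. The FST call failed with 1 of these left out: HAND1 sgRNA replicate 1 (adjusted p = 0.0800) or 3 (0.0820) or Luciferase sgRNA replicate 1 (0.0698), and with the replicate number as a block (0.0524). Against ETV1 sgRNA BGN was higher by 0.42 (adjusted p = 0.0131), a call that failed with ETV1 sgRNA replicate 1 (0.0535) or 3 (0.0556) or HAND1 sgRNA replicate 3 (0.0661) left out. TGIF1, a SMAD co-repressor, was at −0.52 (adjusted p = 0.00820) in that comparison. With HAND1 sgRNA against Luciferase sgRNA BAMBI, a decoy type I receptor, fell by 0.62 (adjusted p = 0.0275). The BAMBI call was lost without HAND1 sgRNA replicate 1 (0.0985) or 3 (0.106) or Luciferase sgRNA replicate 1 (0.0906) or 2 (0.0642). It also failed with the block (0.0630) and with no filter on low values (0.0557). Against ETV1 sgRNA BAMBI was not called (−0.43, adjusted p = 0.151 in limma).

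Among TGF-beta target genes, 6 of 23 rose, 3 fell and 14 were not called with HAND1 sgRNA (median 0.19), where 3.67% of all genes rose and 2.93% fell. CTGF, a matricellular protein, was at 16.3 ± 0.896 FPKM with HAND1 sgRNA, 9.81 ± 1.05 with ETV1 sgRNA and 6.57 ± 1.21 with Luciferase sgRNA (SD, n = 3 each). It rose by 1.21 (log2, adjusted p = 2.12e-04) over Luciferase sgRNA, and COL4A1, a basement membrane collagen, rose by 0.59 (adjusted p = 6.77e-04). TSC22D1, a leucine zipper protein first described as TGF-beta induced, fell by 0.58 (adjusted p = 2.30e-04), and JUNB, an AP-1 transcription factor, fell by 0.65 (adjusted p = 0.00188). TAGLN, a smooth muscle actin-binding protein, rose by 1.24 (adjusted p = 0.00193), and TGFBI, a secreted matrix protein named for its induction by TGF-beta, fell by 0.99 (adjusted p = 0.00278). Against ETV1 sgRNA, HAND1 sgRNA libraries were lower in JUNB by −1.14 (adjusted p = 6.46e-05) and in TSC22D1 by −0.59 (adjusted p = 2.89e-04), and higher in COL4A1 by 0.44 (adjusted p = 0.00606). TAGLN and TGFBI were named after their values were seen. ACTA2, smooth muscle actin, was at 47.1 ± 1.20 FPKM with HAND1 sgRNA, 79.1 ± 3.94 with ETV1 sgRNA and 52.1 ± 2.02 with Luciferase sgRNA (SD, n = 3 each). It rose by 0.59 (adjusted p = 0.00120) with ETV1 sgRNA against Luciferase sgRNA. The HAND1 sgRNA libraries were lower than the ETV1 sgRNA libraries, at −0.73 (adjusted p = 3.71e-05).

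**Figure D4:**
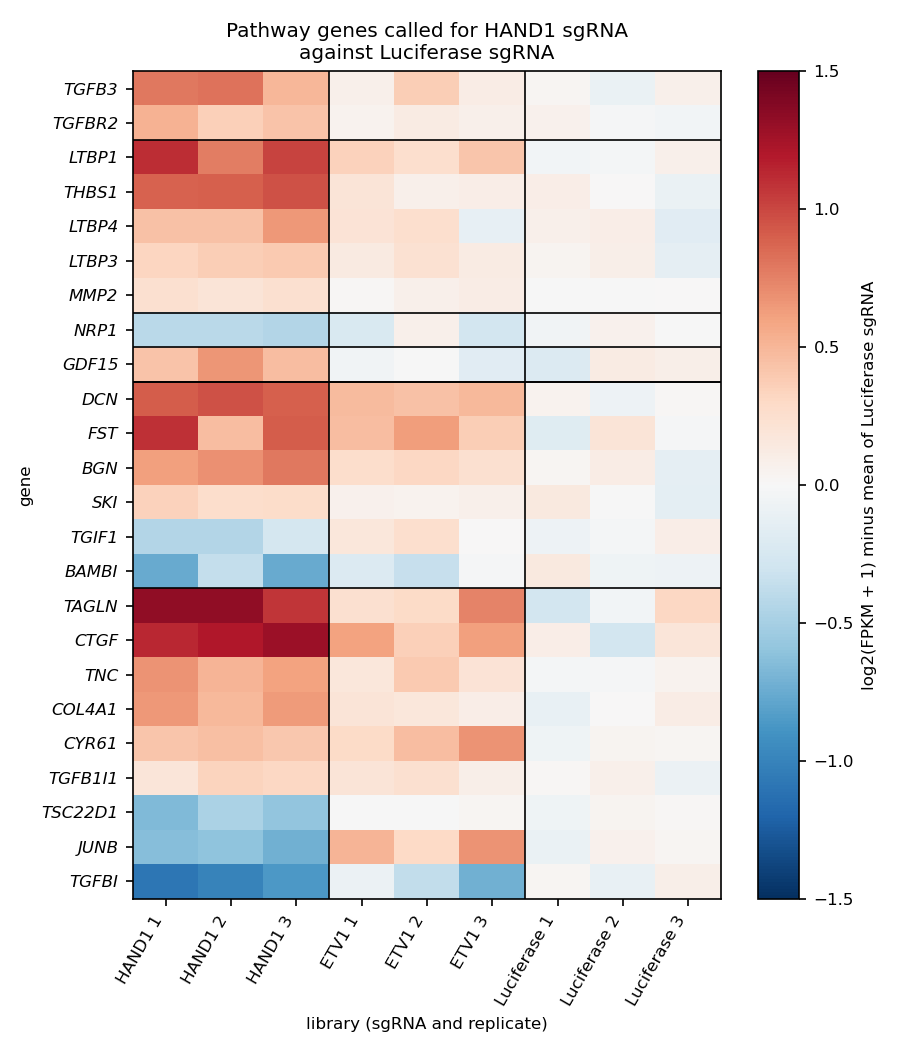
The 24 core and other pathway genes called for HAND1 sgRNA against Luciferase sgRNA (rows, in blocks by role and ordered by difference) in the 9 libraries (columns). Colour is log2(FPKM + 1) minus the mean of the 3 Luciferase sgRNA libraries, red above and blue below. Because the rows were chosen by that comparison, the HAND1 sgRNA columns stand apart by construction. The ETV1 sgRNA libraries entered the same fit and are set against the same Luciferase sgRNA mean.

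The remaining 3 lists held 2 calls with HAND1 sgRNA against Luciferase sgRNA, where 6.60% of all genes were called. Of 8 other SMAD mediators and cofactors tested 0 were called in limma, and 0 had an unadjusted p under 0.05. Of 7 other receptors and co-receptors tested, NRP1, neuropilin, fell by 0.42 (adjusted p = 0.0229). The NRP1 call was lost with 1 of these left out: HAND1 sgRNA replicate 1 (adjusted p = 0.0662), 2 (0.0701) or 3 (0.0824) or Luciferase sgRNA replicate 2 (0.0849). ENG, endoglin, a co-receptor usually prominent on endothelial cells, was at 509 ± 6.76, 451 ± 11.1 and 466 ± 26.6 FPKM with HAND1, ETV1 and Luciferase sgRNA (SD, n = 3 each; HAND1 sgRNA against Luciferase sgRNA 0.13, adjusted p = 0.268). GDF15, a stress-induced cytokine, stood in the list of other ligands of the SMAD2/3 branch by its family, not by its signalling. Of the 5 genes tested in that list, GDF15 rose by 0.52 (adjusted p = 0.0125). That call failed with HAND1 sgRNA replicate 2 left out (adjusted p = 0.0559). Against ETV1 sgRNA GDF15 was higher by 0.59 (adjusted p = 0.00857). INHBA, which encodes the subunit of activin A, was at or below 0.385 FPKM in all 9 libraries.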

How the data were processed

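RNA-seq of 9 GIST-T1 libraries was analysed, 3 each with HAND1, ETV1 and Luciferase sgRNA. The authors deposited 1 FPKM value per gene symbol and library. The library kit was the NEBNext Ultra II non-stranded kit, per the labels' protocols, and the submitters' processing notes name STAR, Cufflinks and hg19, with no version. Annotation and scaling between libraries: not given in the sources used here. FPKM are not counts, so no count model was applied and absolute depth is unknown. Relative depth, from the most frequent ratio between libraries among genes between 0.001 and 0.1 FPKM, was 0.636 (ETV1 sgRNA replicate 2) to 0.952 (HAND1 sgRNA replicate 2) of Luciferase sgRNA replicate 1.

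Values below 1e-06 were read as 0. The 11348 genes that averaged 1 FPKM or more were fitted as log2(FPKM + 1) with limma 3.58.1 in R 4.3.3, group as the only term and an intensity trend (residual degrees of freedom 6, prior 4.15). All tests are two-sided, and a simulation with known changes was used to check the fit. Its noise was independent between libraries, so it does not cover a library that stands apart. The members, lists and tests were chosen with earlier results of these data known. Named were all members, ETV1 and HAND1, up to 4 called genes per list and comparison, and 3 genes of closest profile per called member. TAGLN, TGFBI, SKI and TGFB1I1 fall outside it, as do the cell type markers. SMAD4, SMAD7, ENG, INHBA and the neighbours of SMAD4 were described without a call. Overlapping genes came from GENCODE release 29 and promoter windows from RefSeq (both GRCh38). Alternatives were another pseudocount, filter, scaling or variance model, only the groups compared, a replicate block and each library left out.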

Additional observations from a re-analysis of the deposited data

How the results depend on the processing

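Of the 8 tested core genes, TGFBR2 kept its calls and TGFB3 its call for HAND1 sgRNA against Luciferase sgRNA under every alternative in which they were tested. A minimum mean of 5 FPKM removes TGFB3 (mean 3.35 FPKM) from the test and leaves 1 core gene called there. With ETV1 sgRNA, 0 core genes were called under any alternative. For HAND1 sgRNA against ETV1 sgRNA, 1 core gene remained called with only the 2 groups in the fit and 1 with the replicate block, and leaving out 1 library gave 1 to 3. Same-numbered libraries did not deviate together (correlations −0.146 to 0.138). These correlations cannot show whether same-numbered libraries were made together. The block gave 632, 16 and 364 called genes for HAND1 against Luciferase, ETV1 against Luciferase and HAND1 against ETV1 sgRNA. The full fit gave 749, 23 and 460. Leaving out 1 library gave 433 to 730, 11 to 26 and 271 to 583 in the same order, and with only the 2 groups the ETV1 sgRNA count was 14. The other pathway genes called with HAND1 sgRNA against Luciferase sgRNA were 14 to 22 with a library left out, and 10 of the 22 lost their call under at least 1 alternative.

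Directions that turned were all of differences close to 0 and never called. Against Luciferase sgRNA the HAND1 sgRNA difference of SMAD2 was 0.0080 with median centring and −0.051 to 0.0078 with a library left out. In the same comparison, leaving out a library gave −0.0089 to 0.074 for TGFB1, −0.035 to 0.044 for SKIL and −0.0052 to 0.12 for TGFBR1. SMAD3 with ETV1 sgRNA against Luciferase sgRNA was −0.062 to 0.0028 with a library left out. TGFBR1 with HAND1 sgRNA against ETV1 sgRNA was 0.012 with median centring and −0.081 to 0.043 with a library left out.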
